A study of Homo sapiens with 6 samples.

Results

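The genes described here encode potassium, calcium and sodium channels and the transient receptor potential (TRP) channels, together with their auxiliary subunits. They were chosen by gene symbol: 159 rows of the count table carried a symbol of the families KCN, CACNA, CACNB, CACNG, SCN, TRPA, TRPC, TRPM, TRPV or MCOLN, and the 64 with at least 60 counts over the 6 libraries were kept, out of 58735 gene rows in all. Of these 64 members, 38 belong to potassium channels, 11 to calcium channels, 5 to sodium channels and 10 to TRP channels. The study silenced NEDD9, which encodes a Cas family scaffold protein, in the prostate cancer line VCaP, of human origin, which carries the TMPRSS2-ERG fusion. The 3 shNTC libraries came from VCaP cells stably infected with a non-targeting control shRNA, and the 3 shNEDD9 libraries from VCaP cells stably infected with an shRNA against NEDD9. Both groups were kept in DMEM with 10% FBS. How many hairpins were used, and whether the stable cells were pools or clones, is not given in the sources used here.

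Ion channels are membrane proteins that open a selective pore. Potassium channels let potassium leave the cell and hold the membrane potential negative, voltage-gated calcium and sodium channels open on depolarisation, and most TRP channels pass calcium and other cations in response to temperature, lipids, calcium or chemical ligands. In prostate epithelium the best known members are TRPM8, the cold and menthol receptor, whose expression depends on androgen, and TRPV6, a calcium-selective epithelial channel.

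The 4 promoter windows below belong to TRPM8, TRPV6 and KCNK3, which were abundant and fell at least 2-fold, and to KCNMA1, which rose 2-fold. Each is written 5′ to 3′ on the gene's strand, from 250 bases before to 50 bases after the RefSeq start (GRCh38.p14). Capitals mark the steroid response half-site, spelled AGAACA, the GC box, spelled GGGCGG, and the TATA box, spelled TATAAA, all searched on both strands.
TRPM8 (chr2:233917123-233917422, plus strand): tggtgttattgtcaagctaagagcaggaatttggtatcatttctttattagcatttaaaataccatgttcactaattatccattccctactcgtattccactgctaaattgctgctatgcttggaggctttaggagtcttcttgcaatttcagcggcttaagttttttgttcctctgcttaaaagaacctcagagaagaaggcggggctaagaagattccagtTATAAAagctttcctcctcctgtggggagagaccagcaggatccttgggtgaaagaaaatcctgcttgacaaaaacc
TRPV6 (chr7:142885696-142885995, minus strand): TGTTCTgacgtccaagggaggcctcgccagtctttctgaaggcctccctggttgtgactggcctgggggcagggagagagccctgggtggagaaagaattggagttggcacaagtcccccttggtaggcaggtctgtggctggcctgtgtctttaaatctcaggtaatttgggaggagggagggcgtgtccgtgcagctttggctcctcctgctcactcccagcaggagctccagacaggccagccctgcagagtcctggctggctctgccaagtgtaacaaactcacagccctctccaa
KCNK3 (chr2:26692472-26692771, plus strand): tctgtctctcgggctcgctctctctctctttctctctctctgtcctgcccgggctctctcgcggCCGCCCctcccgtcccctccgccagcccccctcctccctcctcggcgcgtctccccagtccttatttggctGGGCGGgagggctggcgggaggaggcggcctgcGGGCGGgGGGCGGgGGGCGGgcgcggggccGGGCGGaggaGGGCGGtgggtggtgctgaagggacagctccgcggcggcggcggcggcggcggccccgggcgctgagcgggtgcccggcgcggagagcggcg
KCNMA1 (chr10:77637759-77638058, minus strand): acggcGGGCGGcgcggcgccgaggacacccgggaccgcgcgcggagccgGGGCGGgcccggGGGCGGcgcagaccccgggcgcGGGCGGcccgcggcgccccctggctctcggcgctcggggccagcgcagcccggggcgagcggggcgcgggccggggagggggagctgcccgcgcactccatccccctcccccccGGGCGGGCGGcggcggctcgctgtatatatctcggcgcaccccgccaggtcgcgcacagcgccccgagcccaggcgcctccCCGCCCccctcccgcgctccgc
The TRPM8 window is 41.0% G and C and holds 1 TATA box, the TRPV6 window is 59.3% G and C and holds 1 steroid response half-site, and the windows of KCNK3 (78.7%) and KCNMA1 (85.7%) hold 7 GC boxes each, 2 of which overlap in KCNMA1. Of the 64 members 44 had a promoter window, and 1 window was counted per member. All 35116 promoters of the table were counted without limiting a gene to 1 window. A GC box stood in 30 of these 44 (68.2%), against 45.0% of all 35116 promoters of the table, and a steroid response half-site in 4 of 44 (9.09%), against 14.8% of all promoters. The members' windows were also richer in G and C, with a median of 70.8% against 58.7% in all promoters, and GC boxes were not counted at matched G and C content. By direction of change, GC boxes stood in 15 of 25 windows of members that fell and in 8 of 8 of members that rose. The E-box (CACGTG) was found in 3 of the 44 windows, against 7.26% of all promoters, and the AP-1 site (TGANTCA) in 1, against 7.71%. The cAMP response element (TGACGTCA) and the ETS site (CCGGAAGT) were found in 0 of the 44 windows, against 1.85% and 4.14% of all promoters. These are matches of letters, not sites shown to be bound.

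Libraries held 3217276 to 9902002 counts, and the detection floor used here, 3 counts in a library, lies at 0.303 to 0.932 CPM (counts per 1000000). NEDD9 itself stood at 361, 338 and 364 CPM in shNTC and at 137, 138 and 136 CPM in shNEDD9, 2.62-fold lower. All 11 VCaP and prostate markers checked were detected, and 6 fell and 3 rose. FOLH1 (log2 fold change -1.68) and KRT8 (-1.43) fell most, while KLK3 (1.75) and KLK2 (0.26) were among those that rose. Their summed level, 15030 to 15270 CPM in shNTC and 17330 to 17890 in shNEDD9, is mostly KLK2. Of the 11 neuronal markers 4 had enough counts to test, of which 2 rose and 2 fell; the list summed to 135.3 to 145.0 CPM in shNTC and 152.3 to 163.0 in shNEDD9, most of it NEFL, with STMN2 and GAP43 at 0 counts. The 8 muscle markers summed to 4.56 to 7.20 against 1.51 to 3.32 CPM, with DES and MYH7 at 0 and ACTN2 the 1 gene tested, which fell. The 7 fibroblast markers summed to 26.7 to 34.5 against 47.4 to 54.4 CPM, with DCN at 8 counts over all libraries. Of the 2 fibroblast markers tested LUM rose (log2 fold change 1.24) and COL1A1 fell (-0.55), and without the count filter COL1A2 (-2.36), COL3A1 (-1.87) and PDGFRA (-4.54) were called lower as well. The 5 endothelial markers reached at most 3.13 CPM in any library (CDH5 at 0 counts) and the 6 blood markers at most 5.13 CPM (CD3E and CD68 at 0 counts), and the 1 gene tested in each list was not called. The part of these marker changes in the results below was not tested.

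Channel transcripts took a smaller share of the RNA after NEDD9 silencing. The 64 members together made up 0.340%, 0.343% and 0.337% of the counts in the 3 shNTC libraries and 0.179%, 0.178% and 0.179% in the 3 shNEDD9 libraries, and the groups did not overlap. TRPM8 alone gave 37.7%, 36.6% and 37.6% of these channel counts in shNTC and 23.2%, 23.2% and 23.4% in shNEDD9. Without TRPM8 the summed level was 2145 ± 41.8 CPM in shNTC and 1363 ± 6.2 CPM in shNEDD9 (SD, n = 3 each). By family, summed TRP levels went from 1794 ± 14.8 to 698.7 ± 4.29 CPM, potassium channels from 995.7 ± 21.0 to 662.6 ± 7.70 CPM, calcium channels from 579.8 ± 15.9 to 367 ± 2.94 CPM and sodium channels from 50.6 ± 2.47 to 48.1 ± 1.19 CPM (SD, n = 3 each). The sodium sums of the 2 groups overlapped, at 47.7 to 52.3 CPM in shNTC and 47.2 to 49.4 CPM in shNEDD9, whereas those of the other families did not. A lower level in such bulk samples can be less RNA per cell or fewer cells that express the gene, which cannot be told apart.

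**Figure D1:**
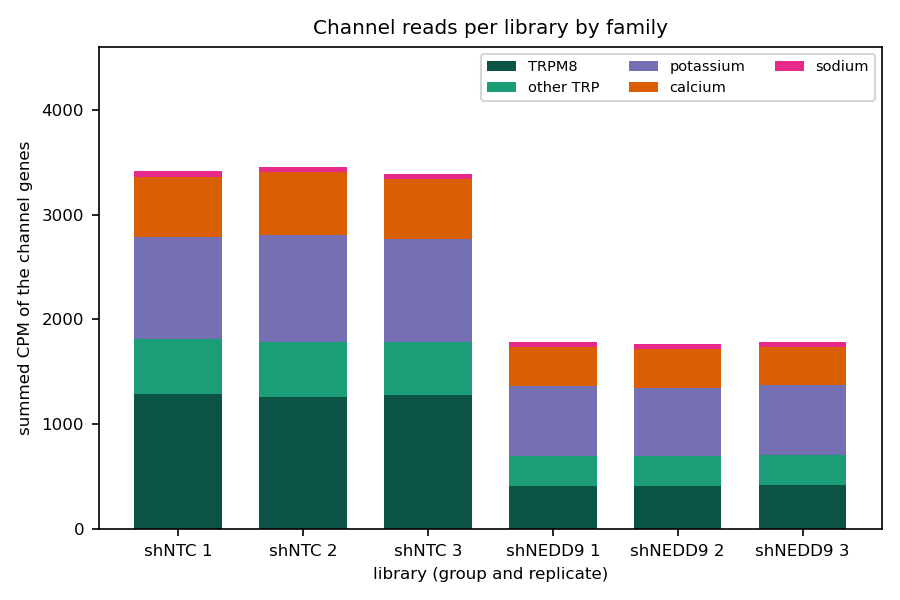
Summed CPM of the 64 channel genes (vertical axis) in each of the 6 libraries (horizontal axis), stacked by family with TRPM8 drawn apart from the other TRP genes. The shNTC libraries reach 3389 to 3457 CPM and the shNEDD9 libraries 1766 to 1782 CPM.

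Every member had enough counts to be tested. With edgeR's quasi-likelihood test and Benjamini-Hochberg adjustment over all 13958 genes tested, at an adjusted p under 0.05, 35 of the 64 members fell (54.7%) and 11 rose (17.2%), while 18 were not called. Among all genes tested 35.9% fell, 35.5% rose and 71.4% were called in either direction, so that the share of members called (71.9%) was near that of all genes. At least 2-fold, 20 members fell and 4 rose, where 9.22% and 7.67% of all genes tested did. The groups did not overlap in 48 members (75.0%), against 72.0% of all genes with at least 60 counts. The median log2 fold change was -0.40 in the members and 0.00 in all genes tested. The median absolute log2 fold change was 0.70 in the members and 0.42 in all genes.

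**Figure D2:**
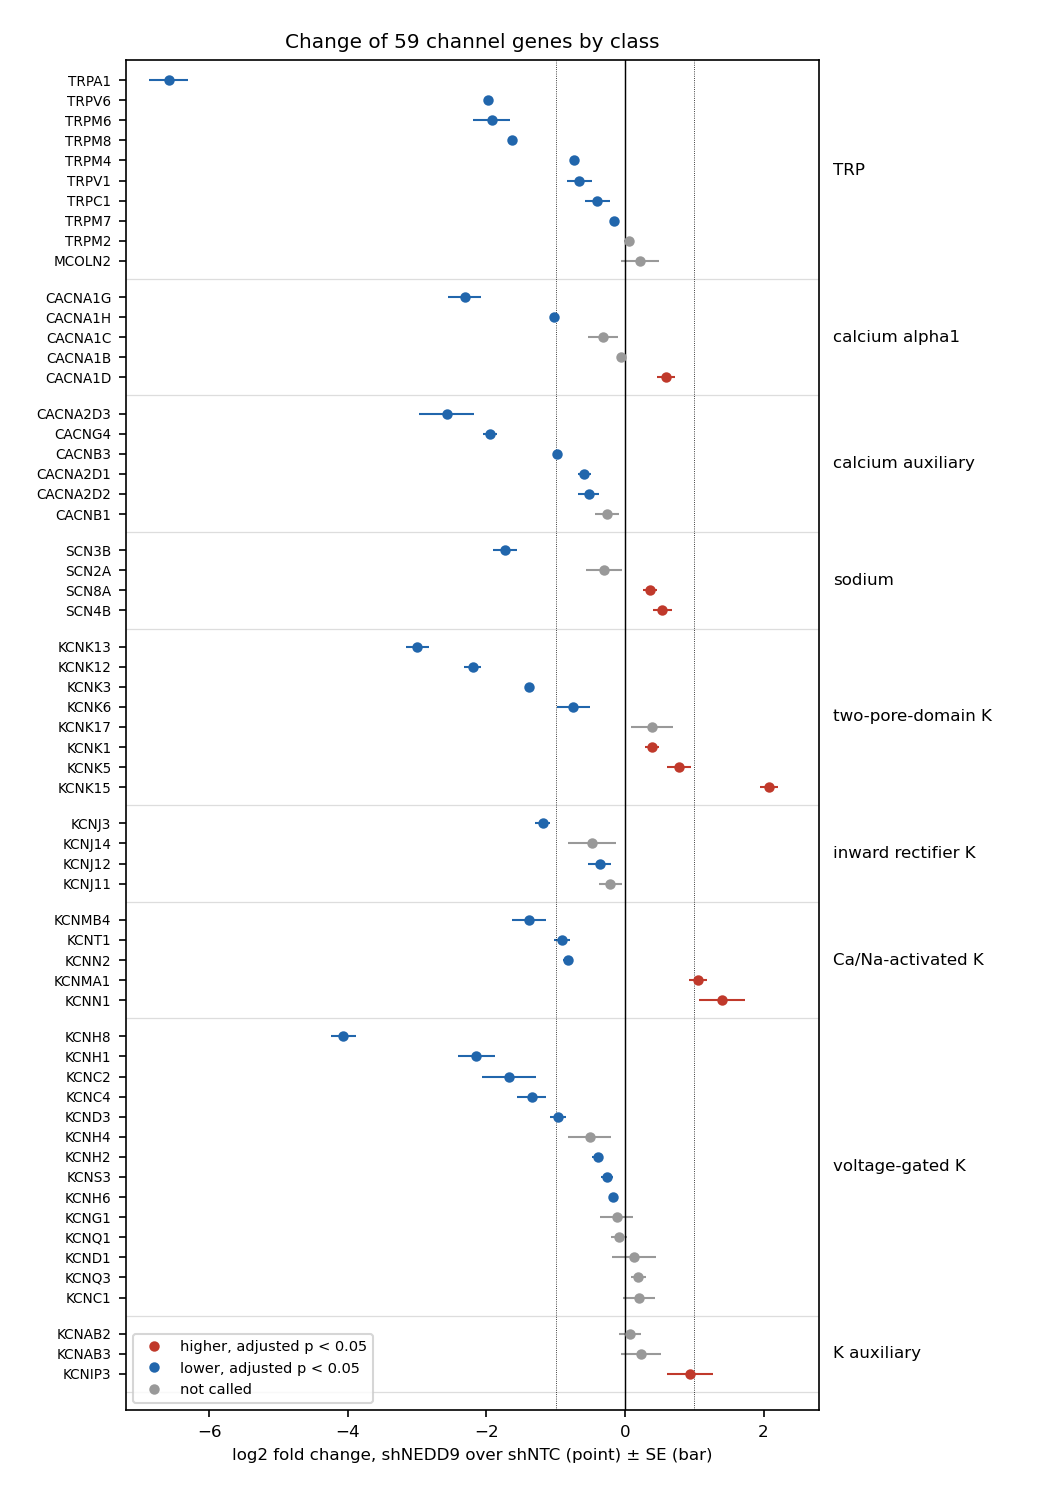
Log2 fold change of shNEDD9 over shNTC (horizontal axis, point with SE bar) for 59 of the 64 channel genes, grouped by channel class; red and blue are genes called higher or lower at an edgeR adjusted p under 0.05, grey genes were not called, and dotted lines mark 2-fold. 0 of the 10 TRP genes and 0 of the 6 calcium auxiliary genes were called higher, whereas tandem-pore-domain potassium genes stand on both sides. Of all genes tested 35.5% were called higher and 35.9% lower.

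Levels of different genes were compared per kilobase of exon. In shNTC the order was TRPM8 (161 ± 1.36 CPM per kb), KCNK3 (53.1 ± 0.96), CACNA1H (26.3 ± 1.51), TRPM4 (23.3 ± 1.26), KCNH6 (19.2 ± 0.44), CACNA1B (15.7 ± 0.64) and TRPV6 (15.2 ± 0.10; SD, n = 3 each). CACNA1B and TRPV6 lay within their spread of each other. In shNEDD9 TRPM8 (52.3 ± 0.39 CPM per kb) and KCNK3 (20.2 ± 0.12) were again the first and second, followed by KCNH6 (17 ± 1.38), CACNA1B (15 ± 0.14), TRPM4 (13.8 ± 0.33), CACNA1H (12.9 ± 0.24) and KCNK15 (10.5 ± 0.66). By rank among the 64 members, TRPV6 went from 7 in shNTC to 16 in shNEDD9, KCNK13 from 13 to 33, and KCNK15 from 26 to 7.

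**Figure D3:**
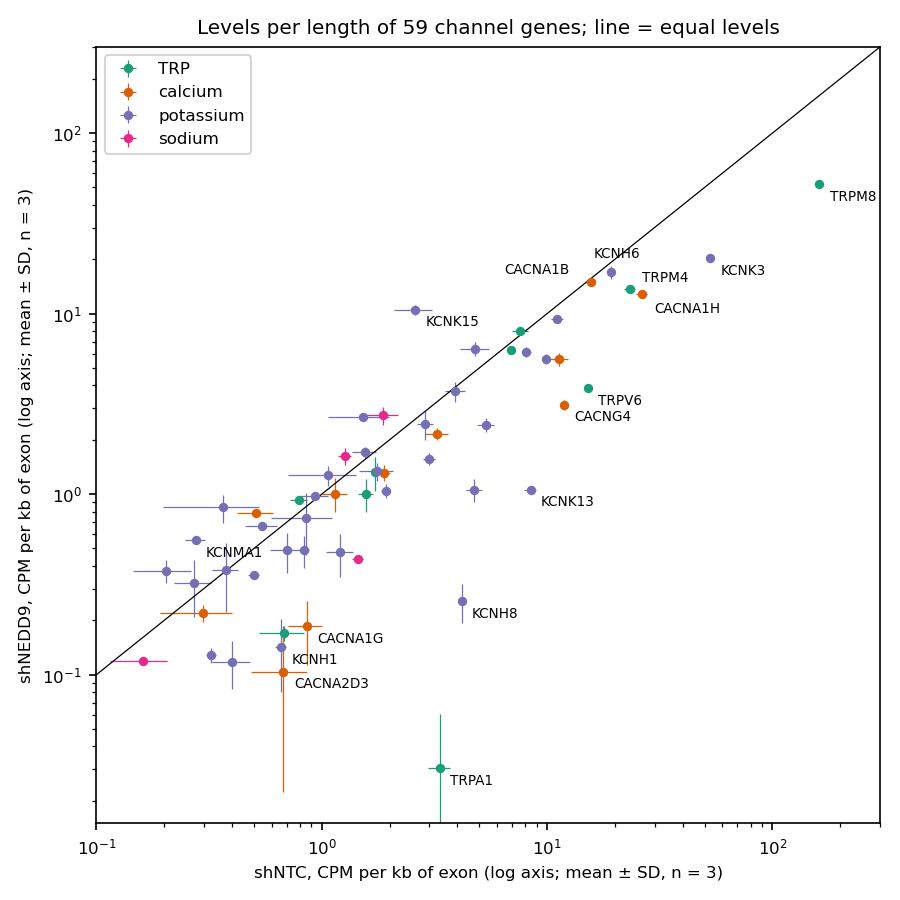
Mean level in shNTC (horizontal axis) against shNEDD9 (vertical axis) in CPM per kilobase of exon, both log axes, with SD bars over 3 libraries, for 59 of the 64 channel genes coloured by family; the line marks equal levels. TRPM8 is highest in both groups, KCNK15 lies above the line, and TRPA1, at 3.34 against 0.0304 CPM per kb, lies farthest below it.

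TRP channels fell almost throughout: 8 of 10 members were lower (80.0%) and 0 higher, with a median log2 fold change of -0.70. Among all genes tested 35.9% were lower and 35.5% higher. The count of 0 higher also held with DESeq2 and limma-voom, and the 2 members not called had unadjusted p-values above 0.05. The count of 8 lower was 6 with DESeq2, without the count filter, after thinning to the smallest library and without shNTC replicate 1, in each of which TRPM7 and TRPC1, described below, were not called. TRPM8, the cold receptor (GRCh38 chromosome 2, 233917398 to 234019522, plus strand), was the most abundant channel gene. Its level was 1286, 1264 and 1275 CPM in the shNTC libraries and 413.3, 410.4 and 416.5 CPM in the shNEDD9 libraries. Every shNEDD9 library thus lay far below every shNTC library, a 3.09-fold decrease (log2 fold change -1.63, SE 0.03, edgeR adjusted p below 1e-300). TRPV6, the calcium-selective epithelial channel (chromosome 7, 142871203 to 142885762, minus strand), had 182.6, 180.7 and 180.5 CPM against 48.2, 43.9 and 46.5 CPM. Its groups were well separated, and it was 3.94-fold lower (log2 fold change -1.98, SE 0.05, edgeR adjusted p below 1e-300).

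TRPA1, the receptor for mustard oil and other irritants (chromosome 8, 72019917 to 72075617, minus strand), had 22.9, 18.5 and 22.5 CPM in shNTC. In shNEDD9 it had 0, 3 and 2 counts, all at or below the floor of 3 counts in a library, so it was near the limit of detection there. Its log2 fold change was -6.58 (SE 0.28, edgeR adjusted p = 5.06e-122), -7.24 without shNEDD9 replicate 2 and -5.57 with every library thinned to the smallest total. TRPM6, a magnesium-permeable channel fused to a kinase, had 5.76, 7.83 and 5.15 CPM against 1.67, 1.40 and 1.61 CPM, again without overlap (log2 fold change -1.92, SE 0.27, edgeR adjusted p = 1.60e-12). Its near relative TRPM7, also a channel with a kinase domain, changed far less. TRPM7 had 88.7, 84.2 and 84.4 CPM against 77.3, 78.5 and 76.7 CPM (log2 fold change -0.16, edgeR adjusted p = 0.00761), and its call ended without shNTC replicate 1 (edgeR adjusted p = 0.09) and with DESeq2 (adjusted p = 0.0737).

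TRPM4, a calcium-activated channel for monovalent cations, was 1.67-fold lower, at 150.3, 163.5 and 148 CPM against 88.8, 90.8 and 93.2 CPM (edgeR adjusted p = 5.83e-56). TRPV1, the capsaicin receptor, fell by 0.66 on the log2 scale, although 28.5% of its 50-base words also occur in transcripts of another annotated gene, so its count is uncertain. TRPC1 was the weakest call of the family (log2 fold change -0.40, edgeR adjusted p = 0.0366). That call ended without shNTC replicate 1, 2 or 3 and without shNEDD9 replicate 2 or 3 (edgeR adjusted p = 0.059 to 0.21), with the replicate block (edgeR adjusted p = 0.0727) and with DESeq2 (adjusted p = 0.177). TRPM2, an oxidant- and ADP-ribose-gated channel, stood at 51.1 ± 4.30 against 53.9 ± 1.03 CPM (SD, n = 3 each) and was not called (95% interval of the log2 fold change -0.07 to 0.19). MCOLN2, an endolysosomal channel, stood at 2.72 ± 0.23 against 3.19 ± 0.03 CPM (SD, n = 3 each) and was not called either.

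Over the 63 members with a tested gene starting within 1 Mb, the median log2 fold change of these neighbours was centred on 0.03 (quartiles -0.06 and 0.13). In 8 of the 10 TRP genes it lay between -0.03 and 0.26, and TRPM8 and TRPV6 were the exceptions. Over all genes tested 35.9% fell and 35.5% rose. Among the 11 other tested genes that start within 1 Mb of TRPM8, 10 fell and 1 rose, with a median log2 fold change of -1.40. Of these, UGT1A1 (log2 fold change -4.94), UGT1A3 (-2.31), UGT1A5 (-1.40) and UGT1A6 (-3.55) share exons, so their counts are not independent, and HJURP, a centromere chaperone gene, was the 1 that rose (1.02). Around TRPV6, 6 of 9 neighbours fell and 1 rose, among them EPHB6 (-2.05). Also among them were TCAF1 (-0.65, 72.6 ± 3.17 against 46.7 ± 1.19 CPM) and TCAF2 (-1.45, 4.74 ± 0.08 against 1.75 ± 0.21 CPM), which encode proteins that bind TRPM8 and were named here after their values were seen. The 2 tested neighbours of TRPA1, EYA1 (0.09) and TERF1 (-0.02), were not called.

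Among the pore-forming alpha1 subunits of voltage-gated calcium channels the T-type genes fell, while the other types differed. CACNA1H, which encodes the T-type channel Cav3.2 (chromosome 16, 1153121 to 1221772), had 226.5, 239.3 and 213.2 CPM in shNTC and 111.9, 111.7 and 108.3 CPM in shNEDD9. It was 2.03-fold lower, with no overlap of the groups (log2 fold change -1.02, SE 0.04, edgeR adjusted p = 7.81e-137). CACNA1G, the T-type Cav3.1 gene, had 7.51, 7.52 and 9.98 CPM against 2.51, 1.77 and 1.11 CPM. It was 4.97-fold lower, and its highest shNEDD9 library lay well under its lowest shNTC library (edgeR adjusted p = 1.68e-21).

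CACNA1B, the N-type gene known from presynaptic terminals, was abundant in both groups, at 148.6, 156.9 and 161.1 CPM against 149.8, 146.9 and 148.4 CPM. The groups overlapped and it was not called (95% interval of the log2 fold change -0.15 to 0.02, edgeR adjusted p = 0.156), except without shNTC replicate 1 (edgeR adjusted p = 0.0489). Of the L-type genes, CACNA1D rose 1.5-fold, from 9.52, 9.39 and 12.8 CPM to 16.6, 15.6 and 16.3 CPM (edgeR adjusted p = 1.87e-05). CACNA1D shares exon bases with CHDH on the opposite strand, which fell (log2 fold change -0.28). The other L-type gene, CACNA1C, stood at 5.67 ± 2 against 4.20 ± 0.45 CPM (SD, n = 3 each) and was not called, except without shNTC replicate 1 (edgeR adjusted p = 0.0373) and after thinning (edgeR adjusted p = 0.0279).

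The auxiliary calcium channel subunits, which set trafficking and gating of the pore, fell in 5 of 6 cases (83.3%), and 0 rose. Over all genes tested 35.9% fell and 35.5% rose. CACNG4, a gamma subunit gene that also modulates AMPA receptors, had 42, 38.8 and 40.1 CPM against 10.7, 11.2 and 9.85 CPM, a 3.87-fold decrease without overlap (edgeR adjusted p = 2.08e-77). CACNA2D3, an alpha2-delta gene, had 4.16, 2.5 and 2.81 CPM against 0.167, 0.380 and 0.905 CPM. With 13 counts over the shNEDD9 libraries its log2 fold change was -2.57 (SE 0.39), and -3.44 without shNEDD9 replicate 3. The alpha2-delta genes CACNA2D1 (29.2 ± 3.41 against 19.5 ± 1.40 CPM) and CACNA2D2 (11.9 ± 0.84 against 8.31 ± 0.82 CPM) fell by 0.58 and 0.52 on the log2 scale. After thinning the call of CACNA2D2 was lost, at an edgeR adjusted p of 0.125 and a log2 fold change of -0.35. CACNB3, the most abundant beta subunit gene, was 1.97-fold lower, at 73.3, 88.9 and 79.4 CPM against 37.6, 43.7 and 38.2 CPM. CACNB1 stood at 8.14 ± 1.04 against 7.15 ± 1.52 CPM (SD, n = 3 each) and was not called. DESeq2 and limma-voom also called 0 of the 6 auxiliary genes higher, and the 1 gene not called had an unadjusted p above 0.05. Of the 4 tested neighbours of CACNA2D1, 3 rose, among them HGF (log2 fold change 1.12), the hepatocyte growth factor gene.

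Sodium channel genes were few and went both ways: of 5 members 2 rose and 2 fell, where 35.5% and 35.9% of all genes tested did. SCN3B, an auxiliary beta subunit gene, had 14.3, 12.8 and 13.9 CPM against 4.02, 4.31 and 4.12 CPM, a 3.33-fold decrease without overlap (edgeR adjusted p = 1.06e-23). Another beta subunit gene, SCN4B, went the other way and rose 1.45-fold (10.6 ± 1.72 to 15.4 ± 1.73 CPM, n = 3 each, edgeR adjusted p = 0.000126). SCN4B was the most abundant sodium channel gene per kilobase in both groups (1.87 ± 0.30 and 2.73 ± 0.31 CPM per kb). SCN8A, the pore gene of Nav1.6, rose 1.28-fold, from 20.4, 17.9 and 18.4 CPM to 21.2, 26.1 and 25.4 CPM (edgeR adjusted p = 0.000888), and was not called after thinning (edgeR adjusted p = 0.0989). SCN2A stood at 3.80 ± 1.08 against 2.84 ± 0.14 CPM and was not called.

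The tandem-pore-domain potassium channels, whose leak current sets the resting potential, moved in opposite directions even within subfamilies: 4 of 8 fell and 3 rose. Of all genes tested 35.9% fell and 35.5% rose. KCNK3, the gene of the acid-sensitive channel TASK-1 (chromosome 2, 26692690 to 26733420), was the second most abundant channel gene. It had 327.4, 337.3 and 326.5 CPM in shNTC and 125.2, 126.7 and 126 CPM in shNEDD9, a 2.61-fold decrease with no overlap (log2 fold change -1.39, SE 0.04, edgeR adjusted p below 1e-300). KCNK15, which encodes the related TASK-5 protein (chromosome 20, 44745780 to 44752313), did the reverse. It had 5.23, 7.52 and 7.49 CPM against 25.4, 27.9 and 28.8 CPM, and its 4.23-fold rise was the largest of any member (log2 fold change 2.08, SE 0.13, edgeR adjusted p = 5.15e-55). Per kilobase, KCNK3 exceeded KCNK15 by 26.2-, 18.7- and 18.2-fold in the shNTC libraries and by 2.06-, 1.9- and 1.83-fold in the shNEDD9 libraries. KCNK15 shares 19.5% of its exon bases with RIMS4 on the opposite strand, which also rose (log2 fold change 1.11), so the counts of the 2 genes may not be fully separate.

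Both genes of the halothane-inhibited THIK subfamily fell strongly. KCNK13 had 22.8, 20.4 and 20.8 CPM against 2.68, 2.54 and 2.81 CPM, and was 7.97-fold lower (log2 fold change -2.99, SE 0.17, edgeR adjusted p = 2.04e-70). KCNK12 had 29.8, 30.7 and 34.8 CPM against 8.20, 6.21 and 6.74 CPM, and was 4.58-fold lower (edgeR adjusted p = 3.15e-72). In both genes every shNEDD9 library was far below every shNTC library. Of the weakly conducting TWIK genes, KCNK1 rose by 0.39 on the log2 scale (17.4 ± 2.51 to 23.2 ± 2.18 CPM) and KCNK6 fell by 0.75 (5.14 ± 0.28 to 3.01 ± 0.61 CPM, n = 3 each). KCNK5, an alkaline-activated channel gene, rose 1.72-fold, from 7.51, 5.64 and 4.06 CPM to 9.87, 10.4 and 9.95 CPM. KCNK17 stood at 2.31 ± 0.77 against 2.76 ± 0.35 CPM and was not called.

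Among the 4 inward rectifiers 2 fell and 0 rose, where 35.9% and 35.5% of all genes tested did. KCNJ3, a subunit of the G protein-gated channel (GIRK1) and in shNTC the most abundant of the class per kilobase, had 29.8, 25.1 and 26.8 CPM against 13.2, 11 and 12.5 CPM. It was 2.28-fold lower without overlap (edgeR adjusted p = 2.91e-26). KCNJ12 fell by 0.36 (edgeR adjusted p = 0.0390), and the call ended without shNTC replicate 2 or shNEDD9 replicate 2 or 3 (edgeR adjusted p up to 0.16), with DESeq2 (adjusted p = 0.154), without the count filter (edgeR adjusted p = 0.107) and after thinning (edgeR adjusted p = 0.0886). Of its 50-base words 16.9% also occur in other genes, mostly in the near-identical KCNJ18, so its count is uncertain. KCNJ11, the pore of ATP-sensitive channels (9.25 ± 0.76 against 7.83 ± 1.41 CPM), and KCNJ14 (2.17 ± 0.13 against 1.55 ± 0.08 CPM, n = 3 each) were not called. The count of 0 risen also held with DESeq2 and limma-voom, although with DESeq2 KCNJ3 alone fell, and KCNJ11 and KCNJ14 had unadjusted p-values above 0.05.

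All 5 genes of calcium- and sodium-activated potassium channels were called, 2 higher and 3 lower, where 71.4% of all genes tested were called. KCNMA1, the pore of the large-conductance BK channel (chromosome 10, 76869601 to 77638369), had 8.98, 11 and 9.52 CPM in shNTC and 20.6, 19 and 19.9 CPM in shNEDD9, a 2.07-fold rise (edgeR adjusted p = 2.41e-15). KCNMB4, which encodes a beta subunit that slows the same channel, fell from 6.43, 6.26 and 4.99 CPM to 2.68, 2.66 and 1.61 CPM (2.62-fold lower, edgeR adjusted p = 4.09e-08). The ratio of KCNMA1 to KCNMB4 per kilobase was 0.191, 0.239 and 0.261 in shNTC and 1.05, 0.977 and 1.69 in shNEDD9. The small-conductance genes also parted: KCNN2, the most abundant of the class per kilobase, was 1.77-fold lower (64.3, 65.1 and 62.2 against 39, 36.1 and 34.2 CPM). KCNN1 rose 2.64-fold from few counts, from 1.21, 2.19 and 0.936 CPM to 2.68, 3.68 and 3.72 CPM (edgeR adjusted p = 3.54e-05). KCNT1, a sodium-activated channel gene, was 1.88-fold lower, at 23.4 ± 1.02 against 12.7 ± 1.08 CPM (SD, n = 3 each).

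Of the 18 voltage-gated potassium pore genes 9 fell and 2 rose, where 35.9% and 35.5% of all genes tested did. The share called in either direction was 61.1% in this class and 71.4% in all genes tested. KCNH8, an ELK-type channel gene (chromosome 3, 19148454 to 19535646), had 24.5, 26 and 26.5 CPM against 2.01, 1.40 and 1.31 CPM. Its 16.7-fold decrease was exceeded among the members by that of TRPA1 alone (log2 fold change -4.06, SE 0.18, edgeR adjusted p = 6.96e-110). All 3 tested neighbours of KCNH8 within 1 Mb also fell, against 35.9% of all genes tested. Among them the chromatin organiser gene SATB1 had a log2 fold change of -3.17. A cause shared with KCNH8 was not tested. KCNH1, the EAG1 gene, had 6.30, 6.89 and 6.24 CPM against 0.837, 2.03 and 1.31 CPM (log2 fold change -2.15, and -3.09 after thinning). Its count is uncertain, since 15% of its 50-base words occur in other annotated genes.

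The ERG-type genes of the same KCNH family moved little by comparison. KCNH2, which encodes the cardiac hERG channel, fell by 0.40 (47.6 ± 2.18 to 36.0 ± 2.29 CPM), and KCNH6, the most abundant voltage-gated potassium gene per kilobase, by 0.17 on the log2 scale. KCNH6 had 78.7, 81.1 and 82.4 CPM against 72.5, 65.2 and 76.6 CPM, and its call ended without shNEDD9 replicate 2 (edgeR adjusted p = 0.152), with DESeq2 (adjusted p = 0.0591) and after thinning (edgeR adjusted p = 0.269). The ELK-type gene KCNH4 stood at 2.74 ± 0.43 against 1.92 ± 0.48 CPM and was not called.

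KCNC4, a gene of the KCNC subfamily, had 7.91, 7.83 and 8.58 CPM against 3.18, 3.55 and 2.92 CPM and was 2.54-fold lower. KCNC2, of the same subfamily and just above the count minimum, had 2.95, 2.82 and 2.03 CPM against 0.502, 0.887 and 0.905 CPM and was 3.18-fold lower (edgeR adjusted p = 2.44e-05). In both genes the groups did not overlap, whereas those of KCNC1 did, at 3.91 ± 0.72 against 4.62 ± 1.62 CPM, and it was not called.

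KCND3, an A-type channel gene, was 1.96-fold lower (23.5 ± 1.43 against 12.3 ± 0.88 CPM), and KCNS3, a silent modulatory subunit gene, fell by 0.26 on the log2 scale. The call of KCNS3 ended without shNTC replicate 3 (edgeR adjusted p = 0.0622).

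KCNQ1, the gene of a slow cardiac and epithelial delayed rectifier (17.4 ± 1.79 against 16.5 ± 2.09 CPM), and KCNQ3, an M-current gene (19.6 ± 2.39 against 21.6 ± 1.39 CPM; SD, n = 3 each), were not called. KCNQ3 passed without shNTC replicate 2 (edgeR adjusted p = 0.0492). KCNG1 and KCND1, at 4.65 ± 1.42 against 4.01 ± 1.51 and 2.18 ± 0.28 against 2.20 ± 0.91 CPM, were not called. Of the 3 auxiliary potassium subunits, KCNIP3, a calcium-binding partner of A-type channels, rose 1.92-fold (1.61 ± 0.46 to 2.96 ± 0.42 CPM, n = 3 each, edgeR adjusted p = 0.00603). Its call ended without shNTC replicate 1 (edgeR adjusted p = 0.119) and with DESeq2 (adjusted p = 0.059). The beta subunit genes KCNAB2, the most abundant of this class per kilobase (8.89 ± 1.23 against 9.37 ± 0.28 CPM), and KCNAB3 (2.49 ± 0.40 against 3.05 ± 0.13 CPM) were not called.

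**Figure D4:**
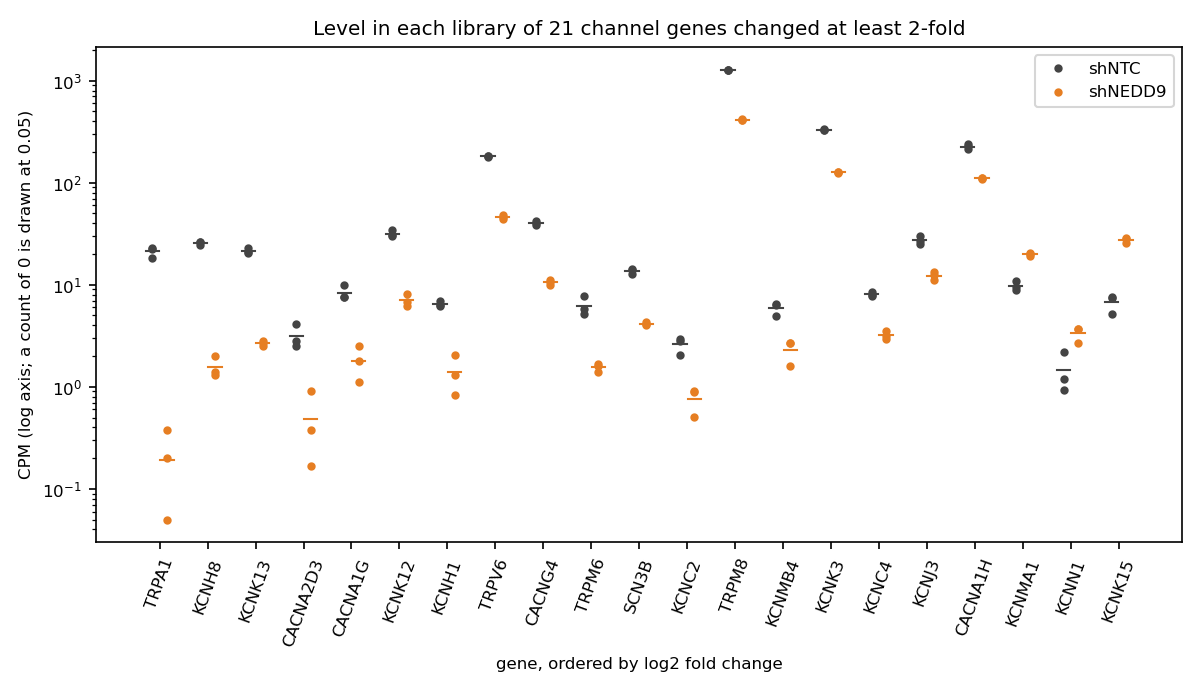
Level in CPM (vertical log axis) in each of the 3 shNTC and 3 shNEDD9 libraries for 21 of the 24 channel genes changed at least 2-fold, ordered by log2 fold change; short lines are group means, and the count of 0 for TRPA1 in shNEDD9 replicate 1 is drawn at 0.05. The groups do not overlap in any of the 21 genes, from TRPA1 at the left to KCNK15 at the right. These genes were picked for their change between the same libraries, so their separation follows largely from that choice. Over all genes with at least 60 counts the groups do not overlap in 72.0%.

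Of the 95 rows below the count minimum, 37 had 0 counts in all libraries and 58 had 1 to 59 counts. Genes just inside the minimum were KCNC2 (63 counts), CACNA2D3 (70) and KCNJ14 (74). Those just outside were the T-type gene CACNA1I with 30 counts in shNTC and 22 in shNEDD9, KCNIP2 with 20 and 29, and the BK subunit gene KCNMB3 with 8 and 41. These are raw counts from libraries of unequal depth. CACNA1I was called lower (log2 fold change -0.91, edgeR adjusted p = 0.0354), although its groups overlapped. KCNIP2 was not called (0.05, edgeR adjusted p = 0.916). Without the count filter KCNMB3 was called higher (1.86, edgeR adjusted p = 0.00114). It shares 37.9% of its exon bases with PIK3CA on the opposite strand.

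Other genes of ion transport, a list of 67 further channels, pumps and exchangers chosen by function, was read beside the members. Of its 51 tested genes 30 fell (58.8%) and 7 rose (13.7%), with a median log2 fold change of -0.25. Among all genes tested 35.9% fell and 35.5% rose, with a median of 0.004. The share called in either direction was 72.5% in the list and 71.4% in all genes. Among the largest changes were those of HCN4, a pacemaker channel gene (log2 fold change -2.56), SCNN1B, an epithelial sodium channel subunit gene (-1.73), and ATP1B1, the beta subunit gene of the sodium pump (-1.52). HCN4 had only 59 counts in all (SE 0.43), with 1, 4 and 6 in the shNEDD9 libraries, near the floor of 3 counts. The mean level of ATP1B1 was 115.1 CPM in shNTC and 40.2 CPM in shNEDD9 (n = 3 each).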

How the data were processed

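Stranded total RNA libraries were sequenced from 6 VCaP samples, per the labels' protocols. The authors deposited raw counts, 1 row per gene and 1 column per library. The submitters' processing notes list STAR 2.5.3a, cutadapt 1.9, Subread 1.6.2, featureCounts and FastQC 0.11.5, beside the builds GRCh38 and hg19. Which annotation was counted, and with which strand setting, is not given in the sources used here, so reads of overlapping genes on opposite strands may have been mixed or dropped. All 58735 identifiers occur in GENCODE release 29 (GRCh38), from which positions and exon lengths (union of all exons) were taken. The 1 row that had no identifier was dropped.

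Samples were grouped by the shRNA in their titles. Counts were tested with edgeR 4.0.16 in R 4.3.3 (glmQLFit with robust estimation, glmQLFTest, TMM factors of 0.993 to 1.01, filterByExpr at its default minimum count of 10), without covariates, with Benjamini-Hochberg adjustment across the 13958 genes tested. Fold changes are shNEDD9 over shNTC, SE is the unmoderated log2 fold change, without its sign, over the root of the F statistic, and intervals are 95%. CPM are counts per 1000000 of the library total times its TMM factor. Floors of 3 counts cover counting error only. The common biological coefficient of variation was 1.65%. Libraries of a group differed only a little beyond sampling noise (chi-square per degree of freedom 1.14 to 1.21). Each library was entered in the test as 1 replicate. The design text calls the libraries biological triplicates without saying what was repeated, so p-values reflect only how these libraries vary, and that may be technical.

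Shared sequence was measured as the share of a gene's 50-base words found in transcripts of other genes. Protein sequences were not used here. Neighbours are tested genes that start within 1 Mb. The members and lists were chosen with earlier results of these data known. Some genes are counted in the totals but not reported here by name. Otherwise, named with values in every library were called members changed at least 2-fold and the most abundant member of each class per kilobase; other members are given by group level or by library where this shows a call near the threshold. The procedure was tested on simulated data in which far fewer genes changed than were called here. How it does when most genes change was not tested. Alternatives were no count filter, upper-quartile or RLE factors, plain library totals, a mean of at least 1 CPM, DESeq2 1.42.0, limma-voom (limma 3.58.1), the replicate number as a block, thinning to the smallest library, each library left out in turn, and member minimums of 30 and 90 counts.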

Additional observations from a re-analysis of the deposited data

How the results depend on the processing

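Over 15 other settings of the test, 37 of the 46 called channel genes stayed past the threshold with the same direction in each setting that tested them, among them all 24 changed at least 2-fold, and 9 lost the call in at least 1 setting. None of the 46 changed sign. The count of channel genes that rose was 8 to 12 over these settings against 11, and that of genes that fell 29 to 35 against 35. With each library left out in turn, 9 to 12 rose and 32 to 35 fell. With member minimums of 30 and 90 counts, 36 and 33 fell and 11 rose in both. Thinning left 56 of the 64 members testable, which limits what the smallest depth can show. Of the 18 genes not called, 4 were called in at least 1 setting and 5 changed sign without being called: TRPM2 (log2 fold change -0.003) and KCNJ11 (0.04) after thinning, KCNAB2 (-0.054) without shNTC replicate 3, KCNG1 (0.047 without shNTC replicate 2, 0.152 without shNEDD9 replicate 3) and KCND1 (-0.07) without shNEDD9 replicate 2. The cause was not tested. With each library left out in turn, KCNAB2 ranged from -0.054 to 0.197, KCNG1 from -0.471 to 0.152 and KCND1 from -0.07 to 0.354. The median log2 fold change of all genes was -0.009 to 0.021 over the settings, and that of the members -0.446 to -0.374.

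With the replicate number as a block, 10 channel genes rose and 34 fell, and over all genes 4881 rose and 4953 fell, against 4950 and 5014 without it. The labels do not say that a number marks a shared batch. Deviations of same-numbered libraries from their group means correlated by only 0.00338 to 0.00645. Each number matched itself best, but values this small do not show a pairing, so the numbers were not taken as pairs.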
